A study of Mus musculus with 2 samples.

Results

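PD-1 (Pdcd1), its ligands PD-L1 (Cd274) and PD-L2 (Pdcd1lg2), and 7 further genes of T-cell inhibition were followed through islet leukocytes of NOD mice. These genes are Lag3, Havcr2 (TIM-3), Tigit, Cd160, Cd244a, Lgals9 (galectin-9, described as a TIM-3 ligand) and Entpd1 (CD39). Members were chosen by symbol, and each of the 10 symbols matched 1 row of the 32285 genes in the files. Droplet-based single-cell RNA sequencing had been done on 1 library from WT NOD mice and 1 library labelled NOD.Cxcl16-/-, both from females aged 12 weeks. NOD is an inbred strain that develops autoimmune diabetes spontaneously, so both groups carry the same disease-prone background and no disease-free strain served as a control. Islets had been picked by hand after collagenase digestion, brought into suspension without enzymes, and live CD45+ CD31- cells sorted. The labels name no treatment and do not give the number of animals pooled into a library.

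The comparison asks how the members are distributed over islet leukocytes and whether their levels differ between the libraries. With 1 library per group there is no replicate check on any difference, since the cells of a library do not replicate a condition, and p-values were not computed. Levels are in CPM, the UMIs (unique molecular identifiers, which count transcripts) of a gene per 1000000 UMIs summed over the cells of a gate. They carry exact Poisson intervals, and shares of cells carry exact Clopper-Pearson intervals. Both are at the 95% level and cover counting error only. Log2 ratios divide the level in the library labelled NOD.Cxcl16-/- by that in WT NOD, with 1 CPM added to both, and 1.5-fold served as a size for description.

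The libraries held 13859 and 10554 barcodes, WT NOD first here and throughout, with 93553185 and 98681133 UMIs. After filtering, 10722 and 9324 cells remained, at median depths of 3904 and 4903.5 UMIs. CD45 transcript (Ptprc) was found in 74.0% and 87.5% of them and the endothelial gene Cdh5 in 0.373% and 0.515%. Cxcl16 itself stood at 103 and 102 CPM over all barcodes, so a transcript counted as the targeted gene was present in the library labelled NOD.Cxcl16-/-. That goes against the label if the deletion removes the counted end of the gene, which the sources used here do not say, and no direction below is attributed to the genotype. Within the gates described below, Cxcl16 was lower in the library labelled NOD.Cxcl16-/- in macrophages (871 and 541 CPM) and migratory dendritic cells (1013 and 614). The same held for cDC1 (370 and 318), cDC2 (384 and 309) and the Ifitm3 Cfp cells (314 and 260). It was higher there in plasmacytoid dendritic cells (39.7 and 71.1) and gamma-delta cells (18.3 and 26.2), among others. The libraries shared 45 barcode strings.

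Cells were gated on UMIs of lineage genes. The CD8 gate (Cd3 genes with Cd8a or Cd8b1) held 2543 and 1511 cells, the CD4 gate 1288 and 1285, the Treg gate (Foxp3) 280 and 418, and the gamma-delta gate (Trdc) 311 and 240. The NK gate (Ncr1 with fewer than 2 UMIs of Cd3 genes) held 77 and 61 cells and the B gate 1834 and 2050. Macrophages numbered 30 and 113, migratory dendritic cells 31 and 60, cDC1 43 and 59, cDC2 29 and 86, plasmacytoid dendritic cells 51 and 47, and plasma cells 48 and 88. A further 216 and 315 cells had at least 2 UMIs of Ifitm3 and a UMI of Cfp but met no other gate. They carried H2-Ab1 (8062 and 8295 CPM) and Flt3 (132 and 122 CPM), are called the Ifitm3 Cfp cells, and were given no cell type. Gates of 22 and 16 monocytes and of 13 and 28 ILC2 were too small to compare. No gate took in 3863 and 2858 cells, of which 3451 and 2423 had a UMI of Cd3e, Cd3d or Cd3g. Also left out were 43 and 89 cells that met several gates.

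PD-1 is induced on T cells by antigen receptor signalling and, when bound by PD-L1 or PD-L2 on another cell, recruits phosphatases that dampen that signalling. LAG-3 binds MHC class II and other ligands, TIGIT competes with CD226 for the poliovirus receptor family, CD160 binds HVEM, and CD244 binds CD48. CD39 breaks down extracellular ATP on the path to adenosine. Several of these receptors are found together on T cells under lasting antigen exposure, and PD-1 blockade is known to hasten diabetes in NOD mice and can cause autoimmune diabetes in patients.

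The PD-1 and PD-1 ligand promoters are shown because interferons are known to raise both ligands, and the galectin-9 promoter because it was the member promoter with matches to the interferon-response motif. RefSeq promoters of GRCm38.p6, 250 bases before to 50 after the annotated start, were available for 9 of the 10 members, with 11 promoters in all. Capitals mark matches, on either strand, to 3 motifs: IRF (2 copies of GAAA with any 2 bases between them), STAT (TTCNNNGAA) and AP-1 (TGANTCA).
Pdcd1 (chr1:94052504-94052803, minus strand): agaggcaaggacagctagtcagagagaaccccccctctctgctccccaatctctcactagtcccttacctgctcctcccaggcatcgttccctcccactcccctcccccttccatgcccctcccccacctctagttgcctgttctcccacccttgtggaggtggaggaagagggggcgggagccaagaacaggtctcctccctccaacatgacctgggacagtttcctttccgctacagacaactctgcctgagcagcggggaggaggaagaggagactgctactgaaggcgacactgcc
Cd274 (chr19:29367188-29367487, plus strand): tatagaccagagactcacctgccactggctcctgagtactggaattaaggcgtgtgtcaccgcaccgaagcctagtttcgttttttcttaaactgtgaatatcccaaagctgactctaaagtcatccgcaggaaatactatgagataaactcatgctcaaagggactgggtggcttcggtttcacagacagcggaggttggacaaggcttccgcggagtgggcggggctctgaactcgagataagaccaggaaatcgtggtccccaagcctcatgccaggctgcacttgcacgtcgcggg
Pdcd1lg2 (chr19:29410669-29410968, plus strand): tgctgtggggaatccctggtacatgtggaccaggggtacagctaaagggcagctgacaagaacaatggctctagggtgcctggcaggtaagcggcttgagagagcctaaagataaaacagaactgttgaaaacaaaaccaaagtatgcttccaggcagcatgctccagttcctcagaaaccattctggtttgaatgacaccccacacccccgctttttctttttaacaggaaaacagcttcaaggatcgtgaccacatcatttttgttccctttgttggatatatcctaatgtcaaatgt
Lgals9 (chr11:78984875-78985174, minus strand): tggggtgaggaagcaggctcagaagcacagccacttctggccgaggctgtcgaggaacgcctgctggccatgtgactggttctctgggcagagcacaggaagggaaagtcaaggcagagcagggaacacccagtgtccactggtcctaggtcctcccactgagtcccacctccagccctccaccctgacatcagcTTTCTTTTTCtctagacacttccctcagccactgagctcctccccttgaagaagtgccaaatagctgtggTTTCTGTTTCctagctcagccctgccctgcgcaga
Havcr2 (chr11:46454681-46454980, plus strand): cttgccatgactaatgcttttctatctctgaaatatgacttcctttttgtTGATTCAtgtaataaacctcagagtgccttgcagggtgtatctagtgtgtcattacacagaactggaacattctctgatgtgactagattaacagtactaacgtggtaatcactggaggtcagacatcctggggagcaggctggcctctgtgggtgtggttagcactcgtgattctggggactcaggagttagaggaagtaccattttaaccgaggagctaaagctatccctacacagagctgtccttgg
The Lgals9 window held 2 IRF matches, while 3.44% of 32851 mouse promoters of this length held any. Havcr2 and Cd244a each held 1 AP-1 match (7.81% of promoters), and the second annotated Cd160 promoter held 1 STAT match (8.30%). These letters did not occur in the Pdcd1, Cd274, Pdcd1lg2, Tigit and Entpd1 windows. The PD-L1 gene (Cd274, chr19:29367455-29388095) and the PD-L2 gene (Pdcd1lg2, chr19:29410919-29471161) lie on the same strand with 22823 bases between them in GENCODE M21.

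Pdcd1 transcript was a feature of the alpha-beta T-cell gates. In the CD8 gate its level was 87.4 CPM in WT NOD (83.0 to 92.0) and 104 CPM in the other library (98.0 to 110), and in the CD4 gate at 87.2 (80.6 to 94.1) and 101 (94.6 to 108). The CD8 and CD4 intervals overlapped in both libraries. Tregs were lower, at 60.1 (49.4 to 72.5) and 69.2 CPM (60.5 to 78.9), and gamma-delta cells lower again, at 24.8 (17.6 to 34.1) and 53.8 (42.0 to 68.0). NK cells gave 2 and 1 UMIs in all, and B cells 1.69 and 0.736 CPM, with no Pdcd1 UMI in either library's plasmacytoid dendritic cells (upper limits 9.16 and 7.71 CPM). Outside the T-cell gates, the highest level of Pdcd1 (ENSMUSG00000026285, chr1:94038305-94052553) in a gate compared was 8.71 CPM, in macrophages. Of all Pdcd1 UMIs in kept cells, 48.7% and 35.6% lay in the CD8 gate, 21.7% and 24.4% in the CD4 gate and 23.8% and 30.8% in cells without a gate.

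Lag3 and Tigit were highest in Tregs. Lag3 stood at 203 CPM (183 to 225) and 182 (167 to 197) in the Treg gate, at 147 (138 to 156) and 115 (108 to 122) in the CD4 gate, and at 124 (118 to 129) and 109 (103 to 115) in the CD8 gate. Plasmacytoid dendritic cells came next, at 94.3 (66.8 to 129) and 81.6 CPM (58.0 to 111), and B cells held 2.58 and 1.47. LAG-3 is known on plasmacytoid dendritic cells as well as on T cells. Tigit stood at 92.4 (79.0 to 107) and 97.4 CPM (86.9 to 109) in Tregs, at 45.6 and 54.3 in the CD4 gate and at 38.9 and 51.2 in the CD8 gate. Tregs lay above both other gates in each library. The CD4 and CD8 levels of each gene overlapped when taken over both libraries, but in WT NOD the Lag3 intervals of these gates did not. In the NK gate Tigit rested on 4 and 13 UMIs. Lag3 (chr6:124904361-124911705, minus strand) lies 16139 bases from Cd4.

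Cd160 was highest in NK and gamma-delta cells, and Cd244a in NK and Ifitm3 Cfp cells. Cd160 stood at 98.7 (64.5 to 145) and 116 CPM (79.1 to 165) in NK cells and at 86.2 (72.2 to 102) and 110 (92.7 to 130) in gamma-delta cells, which overlapped. The CD8 gate held 53.7 (50.2 to 57.3) and 75.1 CPM (70.3 to 80.2), against 5.07 and 7.43 in the CD4 gate and 7.11 and 5.25 in Tregs. Cd244a, which encodes a receptor of the SLAM family, stood at 68.3 (40.5 to 108) and 97.6 CPM (63.8 to 143) in NK cells. The Ifitm3 Cfp cells held 73.1 and 60.1 CPM of it, plasmacytoid dendritic cells 57.1 and 54.4, and gamma-delta cells 34.0 and 37.7. In the CD8 gate Cd244a stood at 2.39 and 2.40 CPM, on 40 and 29 UMIs, and in the B gate at 4.49 and 3.11 CPM. B cells had not been planned as a background for this gene, so its expression in the CD8 gate was left undecided. Cd160 overlaps Pdzk1 and Cd244a overlaps Ly9 on the opposite strand. Whether reads were assigned by strand is not given in the sources used here.

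Havcr2 was higher in cDC1, cDC2, macrophages and Ifitm3 Cfp cells than in T cells, and Entpd1 was so in macrophages and cDC1. Havcr2 stood at 280 (259 to 302) and 373 CPM (354 to 393) in the Ifitm3 Cfp cells, at 254 (201 to 317) and 369 (334 to 407) in cDC2, at 231 and 265 in cDC1 and at 142 and 149 in macrophages. The CD8 gate held 34.1 (31.3 to 37.0) and 32.3 CPM (29.2 to 35.7), the CD4 gate 26.7 and 28.9, and the NK gate no UMI in either library (upper limits 14.0 and 13.9 CPM). Migratory dendritic cells held 73.1 (48.2 to 106) and 58.3 CPM (41.7 to 79.4) of Havcr2, and Tregs 18.0 (12.4 to 25.3) and 47.3 (40.1 to 55.4). The intervals of these 2 gates overlapped in the library labelled NOD.Cxcl16-/-. TIM-3 is known on dendritic cells as well as on T cells. Entpd1 stood at 122 (87.9 to 165) and 132 CPM (114 to 153) in macrophages, at 99.9 and 100 in cDC1, at 46.9 and 41.8 in the CD8 gate and at 32.3 and 37.4 in Tregs. B cells held 19.7 and 20.4 CPM and gamma-delta cells 2.61 and 6.92. Entpd1 overlaps 3 further gene models on its own strand, and how reads shared by them were treated is not given in the sources used here.

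Among the ligands, Cd274 was most abundant in migratory dendritic cells and reached every gate. Its level there was 910 CPM in WT NOD (815 to 1013) and 652 CPM in the other library (593 to 715). Macrophages held 566 (490 to 652) and 292 (264 to 322), cDC2 336 and 326, the Ifitm3 Cfp cells 307 and 307, and cDC1 268 and 256. B cells, the most numerous class of antigen-presenting cell here, held 165 (157 to 174) and 145 CPM (138 to 152), and 18.3% and 13.8% of all Cd274 UMIs. Tregs held 138 and 122 CPM and the CD8 gate 58.0 and 61.6, the lowest of the gates compared. In cells thinned at random to 2000 UMIs, a Cd274 UMI was found in 73.3% (54.1 to 87.7) and 67.2% (53.7 to 79.0) of migratory dendritic cells and in 11.6% and 12.9% of CD8 gate cells. Migratory dendritic cells carry antigen to lymph nodes and are known for high PD-L1.

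Pdcd1lg2 was also highest in migratory dendritic cells, at 108 (77.4 to 148) and 84.5 CPM (64.2 to 109), with Tregs and the CD4 gate next. Tregs held 68.3 (56.9 to 81.4) and 55 CPM (47.2 to 63.7), the CD4 gate 53.0 and 54.7 CPM, and the CD8 gate 18.7 (16.7 to 20.9) and 21.5 (19.0 to 24.3). B cells lay between, at 28.9 and 31.2 CPM, and plasmacytoid dendritic cells held 2 and 1 UMIs. The CD4 level was above the CD8 level in both libraries by more than the counting intervals. In thinned cells a Pdcd1lg2 UMI was found in 13.3% and 13.8% of migratory dendritic cells and in 13.9% and 10.9% of Tregs. The T-cell gates had been planned as the background for Pdcd1lg2, and with these values they could not serve as one. Lgals9 was found in lymphoid and myeloid gates alike. It stood at 105 (73.2 to 145) and 89.8 CPM (74.6 to 107) in macrophages, at 45.8 and 32.4 in B cells, at 38.4 and 39.3 in the CD8 gate and at 5.42 and 2.92 in migratory dendritic cells, where it rested on 2 UMIs per library.

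**Figure D1:**
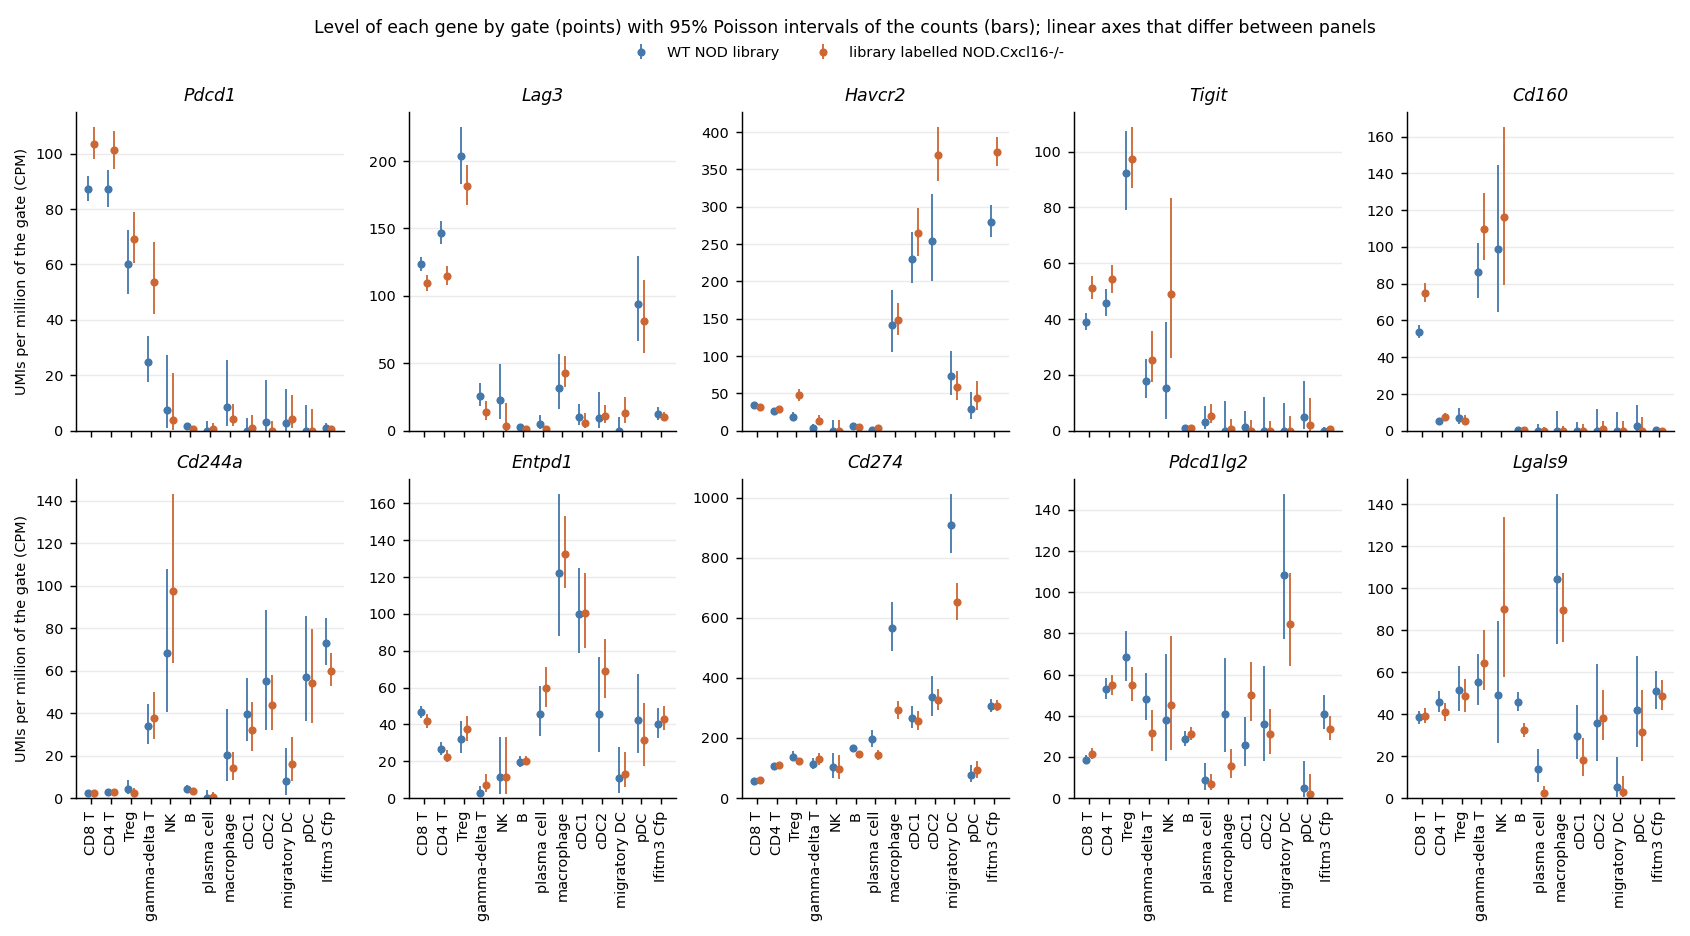
CPM (linear y axes, which differ between panels) of the 10 genes in 13 gates (x axis), with the WT NOD library in blue, the library labelled NOD.Cxcl16-/- in orange and 95% Poisson intervals as bars. Pdcd1 stands above 8.71 CPM in the CD8, CD4, Treg and gamma-delta gates alone, Havcr2 stands higher in the Ifitm3 Cfp cells, cDC1, cDC2 and macrophages than in the CD8 gate, and Cd274 peaks in migratory dendritic cells at 910 and 652 CPM.

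The 26 profiles of 13 gates in 2 libraries were used to find, among 5595 genes, those whose log2(CPM + 1) was most like each member. These are descriptions, since profiles of a library share its depth and preparation and gates share lineage. Pdcd1 was most like Bcl11b (r = 0.94), Rnf19a (0.92), Ttc39c (0.91) and Fundc2 (0.90). Tigit was most like Ndfip1 (0.97), Cd28 (0.96), Thy1 (0.95), Tox (0.94) and Cd27 (0.93). Cd160 was most like Klrc1, Eomes, Apol7b, Apol7e (0.96 each) and Samd3 (0.94). For the other members the nearest gene was Nadk for Havcr2 (0.92), Anxa1 for Cd244a (0.91), M1ap for Cd274 (0.91), Ric1 for Pdcd1lg2 (0.88), Fermt3 for Lgals9 (0.84), Ccs for Lag3 (0.81) and Ly6e for Entpd1 (0.76). Among the members themselves the closest pairs were Pdcd1 with Tigit (0.78) and Tigit with Cd160 (0.77), while Cd274 with Tigit gave -0.77.

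Between the libraries no member passed 1.5-fold in the CD8 gate. The count was 0 of 10 measured members, where 5.18% of the 12271 genes with at least 20 UMIs did. Cd160 had the largest ratio, 0.48 (0.35 to 0.61), followed by Tigit at 0.39 (0.23 to 0.54) and Pdcd1 at 0.24 (0.13 to 0.35), all higher in the library labelled NOD.Cxcl16-/-. Lag3 was lower there, at -0.18 (-0.28 to -0.08). The median over the 10 members was 0.06, beside 0.04 over all genes. When each cell was given equal weight by averaging CPM over cells, the Pdcd1 ratio was 0.068 and the Lag3 ratio -0.30. Variation between animals is not part of these intervals. Summed CPM of 16 myeloid and dendritic markers in this gate was 210 and 106, with 6 of them higher in the library labelled NOD.Cxcl16-/-. The sum of 5 B-cell markers, H2-Ab1 among them, was 189 and 75.2, with 2 of 5 higher. H2-Ab1 was counted in both sums and alone stood at 173 and 64.7 CPM. The part of these markers in these ratios was not tested.

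Shares of CD8 cells gave the same order for Cd160. At 2000 UMIs per cell, which left out 546 and 85 shallower cells, 8.06% (6.91 to 9.34) and 11.6% (9.96 to 13.3) had a Cd160 UMI, and 16.9% and 25.0% did so unthinned at median depths of 4645 and 5523. A Pdcd1 UMI was found in 13.9% (12.4 to 15.5) and 15.4% (13.5 to 17.3), and a Tigit UMI in 8.56% and 10.5%. These intervals overlap, as do those of Lag3 at 21.0% (19.2 to 22.8) and 18.4% (16.4 to 20.5). Unthinned, the shares were 29.3% and 35.5% for Pdcd1, 19.2% and 27.1% for Tigit and 37.2% and 40.7% for Lag3. The unthinned Lag3 shares run opposite to its CPM and were not read. The background in B cells thinned to the same depth was 0.308% and 0.152% for Pdcd1, 0.369% and 0.303% for Tigit, 0.246% and 0.253% for Lag3 and 0.0615% and 0.0505% for Cd160. Without thinning the B cells, whose median depth was 4417.5 and 4608 UMIs, gave 0.545% and 0.390% for Pdcd1, 0.545% and 0.634% for Tigit, 1.15% and 0.780% for Lag3 and 0.327% and 0.146% for Cd160.

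The CD4 gate likewise had 0 of 10 members past 1.5-fold, with 5.49% of 11598 genes past it. Lag3 was lower in the library labelled NOD.Cxcl16-/-, with a ratio of -0.35 (-0.48 to -0.23). Its thinned share was 21.6% (19.2 to 24.0) against 15.6% (13.6 to 17.7), with 34.3% and 31.1% unthinned. Pdcd1 was at 0.21 (0.07 to 0.36), with thinned shares of 12.0% (10.2 to 14.0) and 15.4% (13.5 to 17.6). Tigit was at 0.24 (0.04 to 0.45). Summed CPM of 16 myeloid and dendritic markers in this gate was 346 and 247, and that of 5 B-cell markers, H2-Ab1 among them, 290.0 and 211. H2-Ab1 was counted in both sums and alone stood at 282 and 205 CPM. Whether RNA of these markers bears on these ratios was not tested.

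In Tregs 1 of 9 measured members passed 1.5-fold, where 11.5% of 9695 genes did. This was Havcr2, at 18.0 CPM (12.4 to 25.3; 33 UMIs in 23 of 280 cells) and 47.3 CPM (40.1 to 55.4; 153 UMIs in 63 of 418 cells), a ratio of 1.34 (0.82 to 1.89). It was 0.70 when cells were weighted equally and 0.71 with 2 UMIs required of the defining markers. At equal depth the shares were 4.76% (2.48 to 8.17) and 6.70% (4.46 to 9.60), which overlap, against 0.738% and 0.707% of B cells. The 3 richest cells held 24.2% and 20.3% of the UMIs. In the same gate the summed CPM of the 16 myeloid and dendritic markers was 116 and 190. Of them 12 were higher in the library labelled NOD.Cxcl16-/-, and Ccl22 and Clec9a were at 0 in both. The sum of 5 B-cell markers, H2-Ab1 among them, was 104 and 168. H2-Ab1 was counted in both sums and alone stood at 92.4 and 160 CPM. The part of these markers in the Havcr2 result was not tested. With cells left out at 1 UMI of another lineage in place of 2, the ratio was 1.26. The other Treg members had intervals that included 0.

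The gamma-delta gate had 4 of 9 members past 1.5-fold, 2 in each direction, where 16.1% of 8507 genes were. Pdcd1 stood at 24.8 and 53.8 CPM (1.09, 0.52 to 1.67; 38 and 70 UMIs), yet its thinned shares were 6.30% (3.71 to 9.89) and 6.49% (3.68 to 10.5). Havcr2 rested on 6 and 17 UMIs, of which 88.2% in the second library lay in 3 cells, and its ratio of 1.52 was 0.27 when 1 UMI of another lineage left a cell out and 0.73 with doublets kept. Lag3 fell by 0.87 on the log2 scale (-1.68 to -0.09; 40 and 18 UMIs) and Pdcd1lg2 by 0.60 (-1.16 to -0.05; 74 and 41 UMIs). Myeloid and dendritic markers summed to 221 and 520 CPM, with 9 of 16 higher in the second library and Adgre1, Ccl22 and Xcr1 at 0 in both. The 5 B-cell markers, H2-Ab1 among them, summed to 161 and 340 CPM, with 2 of 5 higher. H2-Ab1 was counted in both sums and alone stood at 143 and 325 CPM. The part of these markers in these ratios was not tested.

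**Figure D2:**
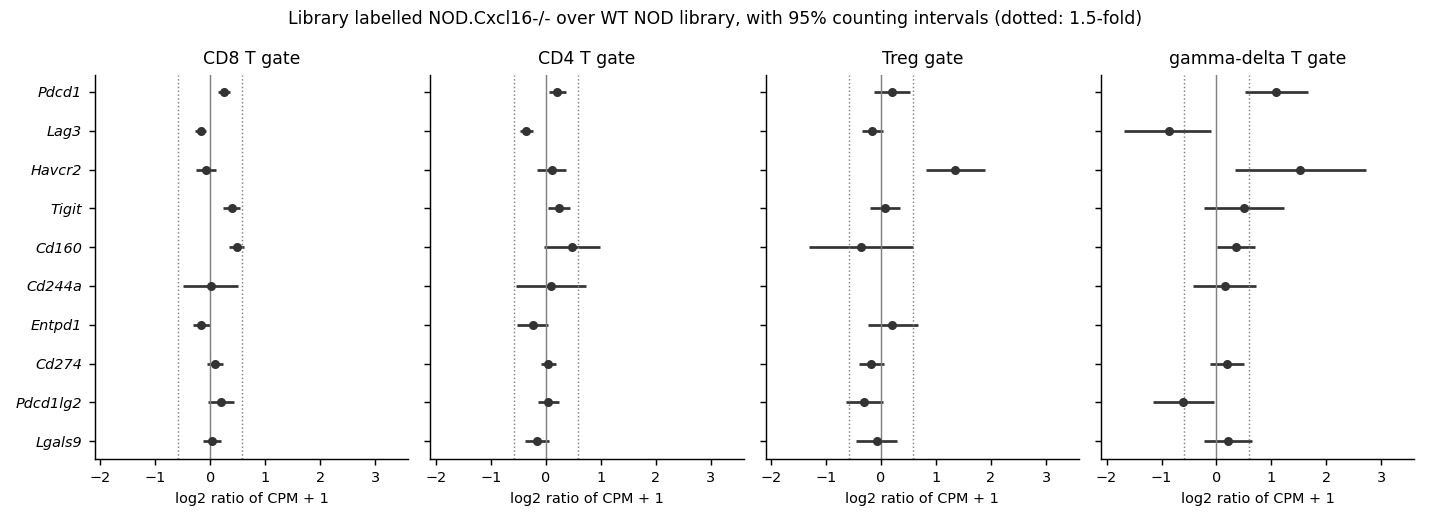
Log2 ratio of CPM + 1 between the libraries (x axis; above 0 is higher in the library labelled NOD.Cxcl16-/-) for each gene (y axis) with at least 20 UMIs in 4 T-cell gates. Bars are 95% counting intervals and dotted lines mark 1.5-fold. All 10 points of the CD8 and CD4 panels lie inside the dotted lines, Havcr2 lies outside them in Tregs, and 4 genes do so in gamma-delta cells.

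In macrophages 2 of 7 measured members passed 1.5-fold, both lower in the library labelled NOD.Cxcl16-/-, where 29.8% of 6653 genes passed it in either direction. Cd274 fell by 0.95 on the log2 scale (-1.20 to -0.70), from 195 UMIs in 30 cells to 397 UMIs in 113 cells. The 3 richest cells held 35.4% and 17.1% of those UMIs, and the thinned shares were 51.7% (32.5 to 70.6) and 34.9% (26.0 to 44.6). Pdcd1lg2 was at 40.7 and 15.5 CPM, on 14 and 21 UMIs, and its ratio of -1.34 was -0.58 with 2 UMIs of the defining markers. In WT NOD 71.4% of its UMIs lay in 3 cells. Of a list of inducers of the ligands and response genes, 11 were measured in this gate. Lower past 1.5-fold were 3 of these, among them Socs1 (-0.92, -1.54 to -0.27) and Ifnar1 (-0.72, -1.23 to -0.20), and none was higher. Socs1 encodes an inhibitor of cytokine signalling and Ifnar1 a chain of the type I interferon receptor. The share of the list past 1.5-fold is near the 29.8% of all genes, and nothing particular to the list was read from it. The list median was -0.05, beside 0.02 over all genes.

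In migratory dendritic cells 0 of 3 measured members passed 1.5-fold, where 27.5% of 5097 genes did. Cd274 was at -0.48 (-0.69 to -0.27), or -0.21 with cells weighted equally, and Pdcd1lg2 at -0.35 (-0.94 to 0.25). Cd80, which encodes a costimulatory ligand that also binds PD-L1, was at 100 and 198 CPM (0.98, 0.45 to 1.53). The Ifitm3 Cfp cells had 0 of 7 members past 1.5-fold, where 12.3% of 9859 genes were. Cd274 was at 307 CPM in both libraries (0.00, -0.13 to 0.14), and Havcr2 was at 0.41 (0.28 to 0.55), with thinned shares of 43.0% and 43.7%. In gates whose ratios were not recomputed under other settings, Havcr2 was at 0.54 in cDC2 (0.19 to 0.90), Pdcd1lg2 at 0.94 in cDC1 (0.20 to 1.73; 70 UMIs in both libraries) and Cd274 at -0.45 in plasma cells (-0.71 to -0.18).

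In the B gate 1 of 9 members passed 1.5-fold, where 8.72% of 11795 genes did. This was Pdcd1, on 15 and 9 UMIs, and its ratio of -0.63 turned to 0.23 when 1 UMI of another lineage left a cell out. The 4 T-cell genes Cd3e, Cd3d, Cd3g and Trac summed to 42.2 and 19.7 CPM in the gate, and their part in the Pdcd1 value was not tested. Cd274 was at -0.19 (-0.29 to -0.09) and Lgals9 at -0.49 (-0.69 to -0.29), with thinned Lgals9 shares of 8.86% (7.52 to 10.3) and 7.12% (6.03 to 8.35).

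The wider pathway was read from 4 lists, of 18 ligands and partners, 14 signalling genes, 20 transcription factors and state genes, and 13 inducers and response genes. In the CD8 gate 2 of 14 measured ligands and partners were higher past 1.5-fold and 1 lower, where 5.18% of all genes in the gate passed it in either direction. Cd200r1, an inhibitory receptor, stood at 2.45 and 6.79 CPM, and Nt5e, which encodes CD73 and completes the adenosine path that CD39 begins, at 9.07 and 17.1 CPM (0.84, 0.56 to 1.13). Sirpa, a gene of myeloid cells, stood at 2.81 and 0.911. The myeloid marker sum of this gate was lower too, but H2-Ab1, which B cells also hold, made up most of it. H2-Ab1 was at 173 and 64.7 CPM and the myeloid gene Lyz2 at 12.4 and 12.2. The part of myeloid RNA in the Sirpa value was not tested. Of 20 state genes 1 was past it, a share near that over all genes. This was Ikzf2 (Helios), at 84.8 and 158 CPM (0.89, 0.79 to 0.99). None of 13 signalling genes and none of 13 inducers were. The CD226 gene, whose product competes with TIGIT, was at 54.6 and 81.9 CPM (0.58), just short of 1.5-fold. Nt5e was higher in Tregs too, at 52.5 and 85.3 CPM (0.69, 0.36 to 1.03).

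Id3 and Eomes, transcription regulator genes of the state list, were lower past 1.5-fold in both the CD4 and the Treg gate of the library labelled NOD.Cxcl16-/-, where no gene of that list was higher past it and 5.49% and 11.5% of all genes passed it in either direction. Id3 was at -0.73 and -0.95 in the 2 gates and Eomes at -0.63 and -3.05, the last from 17.5 to 1.24 CPM. The Treg gate held 280 and 418 cells, and how few of them carried the Eomes UMIs was not counted. Ratios of single list genes were not recomputed under other settings. The Treg gate also had Cd80 (5.47 and 12.4 CPM), Cd86 (14.8 and 30.9) and Ifngr2 (12.0 and 19.8) higher, beside the myeloid marker sums given for that gate. In gamma-delta cells Cxcr6, which encodes the receptor for CXCL16, stood at 225 and 446 CPM (0.99, 0.79 to 1.18), and the other genes past 1.5-fold with the largest ratios were Cd80 (1.88), Cd86 (1.76), Ifngr2 (1.14), Id3 (-0.88) and Ifng (-0.78), beside the myeloid marker sums of that gate.

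The same lists were read in the antigen-presenting gates. In macrophages, where 29.8% of all genes passed 1.5-fold, the largest ratios were those of Nr4a2 (-1.34), Irf4 (1.21), Vsir (1.13), Cblb (-1.04) and Pvr (1.00), the last encoding a TIGIT ligand. In migratory dendritic cells 1 of 8 measured ligands and partners, 2 of 8 signalling genes, 3 of 8 state genes and 3 of 11 inducers and response genes were higher past it and none lower. Of all genes in that gate 27.5% passed it, 893 of 5097 higher and 511 lower, and nothing particular to the lists was read from these counts. The largest ratios were those of Il7r (1.96), Tcf7 (1.57), Nr4a2 (1.38), Bag6 (1.36), Ifnar1 (1.16) and Csk (1.07). In the Ifitm3 Cfp cells Nr4a2 (0.81) was higher and Slamf6 (-0.70) lower. In B cells the T-cell genes Ifng (-1.62), Sh2d1a (-1.45), Lef1 (-0.84) and Tcf7 (-0.77) were lower, beside the lower sum of Cd3 genes and Trac given for that gate, and Tox2 (0.95) and Nt5e (0.75) were higher.

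Co-detection was counted over the 7 receptor genes Pdcd1, Lag3, Havcr2, Tigit, Cd160, Cd244a and Entpd1 in cells thinned to 2000 UMIs. In the CD8 gate 55.7% and 53.0% of cells had a UMI of none of them, and 14.8% (13.3 to 16.5; 296 of 1997) and 16.2% (14.3 to 18.2; 231 of 1426) had at least 2. The largest number in a cell was 5 and 4. In the CD4 gate 11.9% (10.1 to 13.9) and 11.6% (9.85 to 13.5) had at least 2, in Tregs 14.3% (10.2 to 19.2) and 18.4% (14.7 to 22.5), in gamma-delta cells 4.44% and 7.36%, and in B cells 0.369% and 0.101%. The intervals of the 2 libraries overlapped in each of these gates. The share scales with depth, and at 3000 UMIs per cell it was 24.2% and 27.0% in the CD8 gate.

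Cycling CD8 cells held several receptors about as often as the rest. Cells with at least 2 cell-cycle genes made up 17.1% and 11.4% of the thinned CD8 gate. Among them 12.3% (9.00 to 16.2) and 14.7% (9.67 to 21.1) had at least 2 receptors, against 15.3% (13.6 to 17.2) and 16.4% (14.4 to 18.5) of the rest. These intervals overlap.

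**Figure D3:**
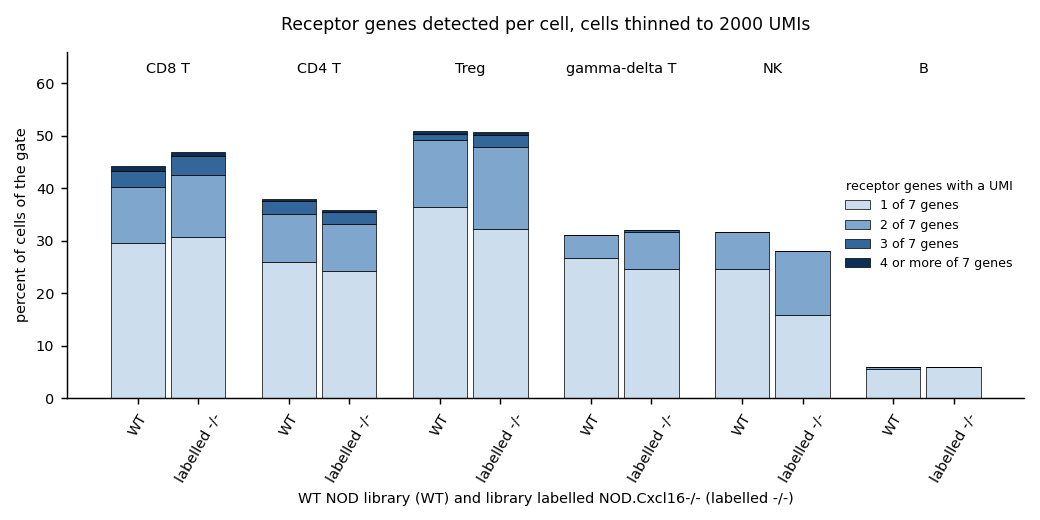
Percent of cells (y axis) of 6 gates with a UMI of 1, 2, 3 or at least 4 of the 7 receptor genes, at 2000 UMIs per cell, for the WT NOD library (WT) and the library labelled NOD.Cxcl16-/- (labelled -/-). At least 2 genes were found in 14.8% and 16.2% of CD8 gate cells and in 0.369% and 0.101% of B cells.

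Within CD8 cells the receptors met unequally. Pdcd1 and Lag3 were found together in 98 and 67 cells, 4.91% and 4.70% of the gate, which is 1.69 and 1.67 times the product of their single shares. Lag3 with Havcr2 was at 2.45 and 1.97 times the product, Pdcd1 with Havcr2 at 2.24 and 1.87, Havcr2 with Entpd1 at 2.02 and 2.88 and Lag3 with Entpd1 at 1.82 and 1.93. Lag3 with Tigit was nearer to the product, at 1.23 and 1.27. Some pairs differed between the libraries, with overlapping intervals, such as Pdcd1 with Tigit (1.60 and 0.998) and Cd160 with Entpd1 (1.12 and 0.651; 13 and 7 cells). These ratios describe the cells of 2 libraries and were not tested.

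In the CD4 gate Havcr2 with Tigit was at 2.81 and 2.81 times the product (12 cells in each library) and Lag3 with Havcr2 at 2.63 and 2.96, whereas Pdcd1 with Entpd1 was at 0.924 and 0.926. In Tregs Pdcd1 with Lag3 was at 1.13 and 0.96, on 8 and 10 cells, and Lag3 with Tigit at 1.27 and 1.46, on 15 and 32.

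**Figure D4:**
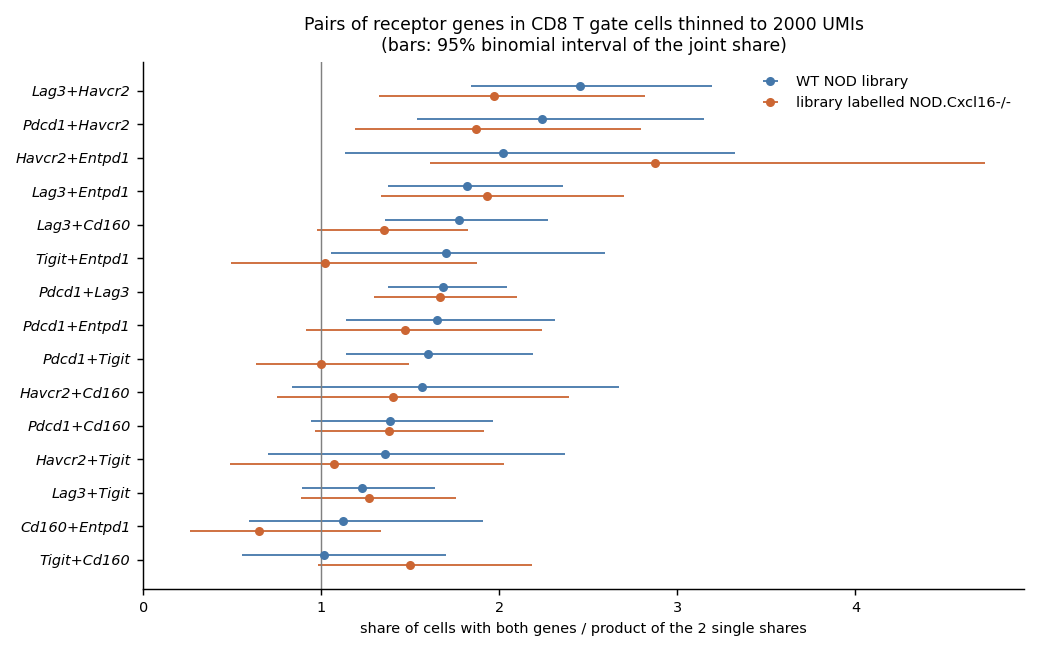
Share of CD8 gate cells with UMIs of both genes of a pair, divided by the product of the single shares (x axis), for 15 pairs (y axis) in the WT NOD library (blue) and the library labelled NOD.Cxcl16-/- (orange), with 95% binomial intervals of the joint share. Of the pairs shown, Lag3 with Havcr2 lies highest in WT NOD, at 2.45, and Havcr2 with Entpd1 in the other library, at 2.88, while Lag3 with Tigit stands at 1.23 and 1.27.

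The receptors differed in what else the same CD8 cell held. Cells with Havcr2 or Entpd1 mostly lacked Tcf7, the transcription factor gene of naive, memory and stem-like T cells. It was found in 2.91% (0.605 to 8.28) and 6.25% (2.06 to 14.0) of cells with Havcr2, against 26.1% and 33.2% of cells without, and in 6.94% and 6.45% of cells with Entpd1. In cells with Pdcd1 the shares were 15.2% (11.2 to 19.9) and 22.4% (17.0 to 28.5), against 26.5% and 33.4% without. Cells with Tigit (21.1% and 32.0%, against 25.3% and 31.7%) or Cd160 (24.2% and 29.7%, against 25.0% and 32.0%) held Tcf7 about as often as cells without them, with overlapping intervals.

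Effector genes ran the other way. Gzmb, the gene of the cytotoxic protease granzyme B, was found in 30.1% (21.5 to 39.9) and 45% (33.8 to 56.5) of cells with Havcr2, against 11.3% and 8.25% without, and in 30.6% and 29.0% of cells with Entpd1. With Tigit the Gzmb shares were 15.2% and 8.67%, against 12.0% and 10.5% without. Cxcr6, the CXCL16 receptor gene and a mark of tissue-resident T cells, was found in 69.9% (60.1 to 78.5) and 72.5% (61.4 to 81.9) of cells with Havcr2, against 24.3% and 29.3% without. With Pdcd1 it was 47.3% and 51.1%, against 23.3% and 28.3% without. With Cd160 it was 32.9% and 31.5%, against 26.1% and 31.8% without, and these intervals overlapped in both libraries. Tox, the exhaustion-linked factor, was more frequent with Tigit (64.3% and 69.3%, against 42.7% and 46.9%), Lag3 (60.4% and 62.2%) and Pdcd1 (58.8% and 60.3%). So it was with Entpd1 (63.2% and 58.1%, against 43.1% and 48.6%), Cd160 (52.8% and 60.6%, against 43.8% and 47.7%) and Havcr2 (52.4% and 56.25%, against 44.1% and 48.8%). Intervals with and without overlapped for Havcr2 in both libraries, for Entpd1 in the library labelled NOD.Cxcl16-/- and for Cd160 in WT NOD. Ifng was found in 35.7% and 30.1% of cells with Pdcd1, against 21.6% and 17.2% without. Il7r, the interleukin-7 receptor gene of naive and memory T cells, was found in 6.86% and 10.5% of cells with Pdcd1, against 19.8% and 23.0% without, and was less frequent with each of the 6 receptors shown than without it in both libraries.

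Cell-cycle genes went with Entpd1. At least 2 of them were found in 25.7% (18.8 to 33.6) and 26.9% (18.2 to 37.1) of CD8 cells with Entpd1, against 16.5% (14.8 to 18.2) and 10.4% (8.77 to 12.1) without. With Cd160 the shares were 16.8% and 4.85%, against 17.2% and 12.3%. Cd274, the gene of the PD-1 ligand, was found in 10.1% (6.82 to 14.3) and 9.13% (5.67 to 13.8) of cells with Pdcd1, against 11.9% and 13.6% of cells without.

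**Figure D5:**
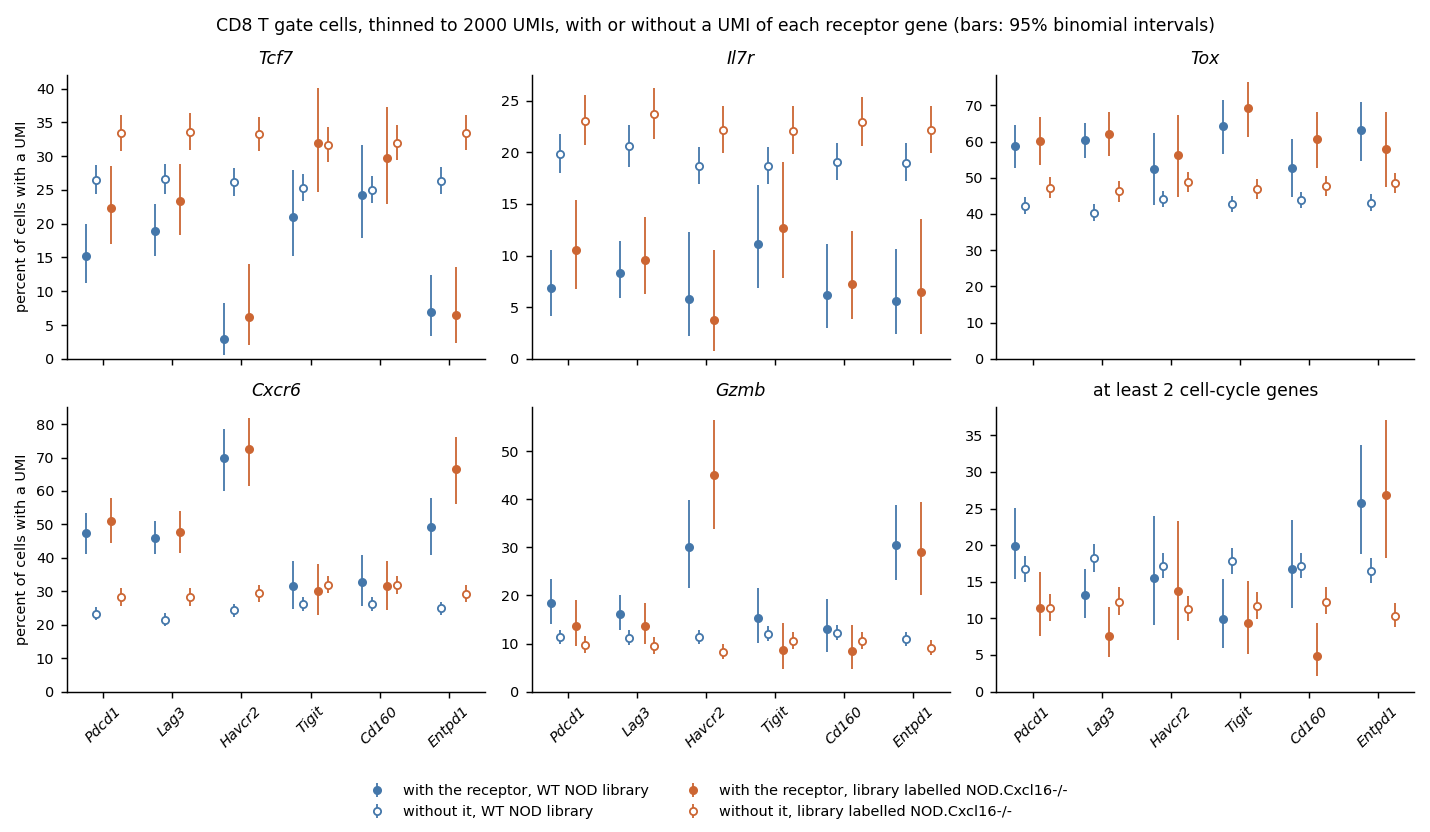
Percent of CD8 gate cells with a UMI of each of 5 genes, or of at least 2 cell-cycle genes (y axes, 1 panel each) among cells with (filled) or without (open) a UMI of each receptor gene (x axis), at 2000 UMIs per cell, with 95% binomial intervals. Tcf7 is found in 2.91% and 6.25% of cells with Havcr2 but in 21.1% and 32.0% of cells with Tigit.

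Genes that differed most between CD8 cells with at least 2 receptors and cells with none, taken by the smaller of the 2 libraries' log2 differences among 4863 genes, were the following. Cxcr6 led the higher genes, at 708 and 125 CPM in WT NOD (2.49) and at 833 and 211 in the other (1.98). Setbp1 (smaller ratio 1.86), the chemokine genes Ccl4 (2.06 and 1.82) and Ccl3 (2.46 and 1.64), Rgs16 (1.77 and 1.83), Penk (2.39 and 1.63) and Prdm1 (1.92 and 1.51), which encodes the effector regulator Blimp-1, were also among them, with Klri2, Chst2, Osbpl3, Tcrg-C2, Klre1, Chn2, S100a4 and Tcrg-C4. Lower genes included the lymph-node and naive-state genes S1pr1 (-3.10 and -2.33), Il7r (-3.13 and -2.47), Lef1 (-2.72 and -2.30), Dapl1 (-3.63 and -3.32) and Klf3 (-2.74 and -3.54), and further Igfbp4, Kbtbd11, Plaur and Ifngr2. Of the state list, Tox2 was at 1.74 and 1.46, Tox at 1.18 and 1.09, Nr4a2 at 1.10 and 1.00 and Tcf7 at -0.89 and -0.74. Sh2d2a, a T-cell adaptor gene of the signalling list, was at 1.28 and 1.31. The ranked genes were picked for having the same direction in both libraries, so their agreement in sign was set by that rule. The list genes were named after their values were seen, so their shared sign is no check either.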

How the data were processed

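Each deposited matrix gives whole-number UMI counts of genes by barcode, not normalized, made by the authors with Cell Ranger 7.0.1 against mm10, per the submitters' processing notes and the file headers. Whether intronic reads were counted is not given in the sources used here. Barcodes with under 500 genes or over 10% mitochondrial UMIs were left out, and the barcodes with the highest scores by the scheme of Scrublet were removed as doublets at 0.8% per 1000 barcodes (1537 and 891). Each remaining cell was gated by UMIs of marker genes. A cell with at least 2 UMIs of another lineage's markers was left out. That threshold, the numbers of markers required in the B and myeloid gates, the 2 Cd3 UMIs asked of gamma-delta cells, the Ncr1 requirement for NK cells (cells with Klre1 alone carried H2-Ab1 and Cst3) and the Ifitm3 Cfp gate were chosen after seeing the data. UMIs were summed per gate. For shares, cells were thinned to 2000 UMIs, which left out 546 and 85 CD8, 115 and 41 CD4, 28 and 15 Treg, 41 and 9 gamma-delta and 209 and 71 B cells. The rule for named genes took all members and, from the lists, up to 6 genes per gate with the largest ratio past 1.5-fold and at least 20 UMIs. The likeness measure is Pearson's r over gates with at least 20 cells in both libraries, among genes with at least 50 CPM in 1 profile. For CD8 cells with several receptors, the 15 highest and 10 lowest genes with at least 50 UMIs after thinning are named. Cd226 in the CD8 gate, Ifnar1, Socs1 and Nr4a3 in macrophages, Il7r in cells with or without a receptor, and the list genes given for CD8 cells with several receptors, were named after their values were seen. Some genes that these rules took are not reported here. Coordinates are those of GENCODE M21 (GRCm38). The members and lists were chosen with earlier results of these data known. Python 3.11.15, numpy 2.4.6 and scipy 1.17.1 were used, and the ratio and interval code was tested on simulated data.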

Additional observations from a re-analysis of the deposited data

How the results depend on the processing

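The log2 ratios and shares were recomputed under other filters on genes, mitochondrial share, doublets, depth, markers, scaling, added CPM and thinning, and under 1 setting chosen after seeing the data, the exclusion of cells at 1 UMI of another lineage. Only ratios on at least 20 UMIs in the CD8, CD4, Treg, gamma-delta, NK, B, macrophage, migratory dendritic and Ifitm3 Cfp gates were recomputed. Of the 20 member ratios among them whose counting interval left out 0, all 20 kept their sign under every setting run. Giving each cell equal weight moved the ratio of Pdcd1 in the CD8 gate to 0.068, of Lag3 to -0.30 in the CD8 gate and -0.53 in the CD4 gate, and of Cd274 in migratory dendritic cells to -0.21. The share of CD8 cells with at least 2 receptors was 5.74% and 7.61% when thinned to 1000 UMIs and 24.2% and 27.0% at 3000, and 18.2% with doublets kept in the library labelled NOD.Cxcl16-/-. The cause of these shifts was not tested, apart from depth, which the thinning sets. Pdcd1 in the B gate, on 24 UMIs, reversed to 0.23 under the stricter exclusion. Cd274 in macrophages ranged from -1.08 to -0.76. Over all 231 results, 1426 recomputed values were within the limit set around the reported one, 258 were not and 1 reversed. The limit was the counting interval or, for list medians, which have none, a small fixed shift in log2. No paired analysis was possible because each group has 1 library. Gates of under 100 cells limit the NK, macrophage and dendritic cell values.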

Other observations

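Cells that met no gate held a fair part of each member's UMIs. Their share ranged from 23.6% (Cd160) to 27.9% (Lgals9) of the UMIs in the WT NOD library and from 26.9% (Cd160) to 41.6% (Entpd1) in the library labelled NOD.Cxcl16-/-. For Havcr2 it was 25.2% and 38.7%, and the Ifitm3 Cfp cells held a further 25.5% and 24.2%.

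PD-L1 and PD-L2 transcripts met in the same cell somewhat more often than the product of their shares in B cells, at 1.91% (1.30 to 2.70) against a product of 1.48% in the WT NOD library and 1.97% (1.41 to 2.68) against 1.34% in the other. In migratory dendritic cells of the WT NOD library, 10% (2.11 to 26.5; 3 of 30) held both, close to the product of 9.78%. In those of the library labelled NOD.Cxcl16-/-, 13.8% (6.15 to 25.4; 8 of 58) held both, against a product of 9.27%. Each of the 8 cells with Pdcd1lg2 there also had a Cd274 UMI, and the interval includes the product. In Tregs the pair was at 5.56% against 3.80% in the WT NOD library and at 0.993% against 2.19% in the other, on 14 and 4 cells.

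In the Ifitm3 Cfp cells Nr4a2, an early-response nuclear receptor gene, stood at 136 and 239 CPM (0.81, 0.63 to 0.99), and in migratory dendritic cells at 51.5 and 136 (1.38, 0.68 to 2.15). In macrophages it ran the other way, at 61.0 and 23.6 CPM (-1.34, -2.13 to -0.51), and Nr4a3 likewise, at 113 and 62.6. Vsir, which encodes the inhibitory molecule VISTA, was at 46.5 and 103 CPM in macrophages (1.13, 0.40 to 1.95). These differences between gates were not tested.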
